A study of Mus musculus with 16 samples.

Results

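The data on fibroblast genes and small proteoglycans cover Lrrc15, Pdgfra, Pdgfrb, Fap, Postn, Dcn, Lum, Ogn, Omd and Apod, 10 of the 55414 gene IDs of the count table. They were selected by name, with earlier results of these tumours known, so their values and fold changes are a description and carry no test of their own. All 10 were found in the table and all 10 passed the filter on low counts. RNA-seq gene counts were available for 16 subcutaneous tumours of the B6MyC-CaP line, prostate cancer cells taken from a Hi-MYC transgenic mouse with a C57BL/6 background. Hosts were male C57BL/6 mice, aged 6 weeks when the cells were implanted. There were 4 groups of 4 tumours, and every mouse carried the same cell line. ADF+ENZ mice were fasted on alternate days, 24 h without food and 24 h with it, and also received enzalutamide, an antiandrogen drug, at 20 mg/kg by gavage each day. ENZ mice received the drug with free access to chow, ADF mice were fasted without the drug, and Vehicle mice ate freely, with neither the drug nor fasting. The line represents 1 tumour lineage, and the site is under the skin and not in the prostate. The labels do not say that the 4 tumours of a group came from 4 mice. If some shared a mouse, the samples were not independent, and the SE and p-values given here may be too small. The spread between samples may also be partly technical.

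Fibroblasts build the connective tissue of a tumour, and in bulk RNA they are read through their receptors, proteases and matrix proteins. PDGF receptors alpha and beta are the tyrosine kinases through which platelet-derived growth factors drive mesenchymal cells. Fibroblast activation protein (Fap) is a cell surface serine protease, Lrrc15 is a leucine-rich membrane protein used in mouse and human tumours as a marker of fibroblasts exposed to TGF-beta, and periostin (Postn) is a matrix protein that binds integrins. Decorin (Dcn), lumican (Lum), osteoglycin (Ogn) and osteomodulin (Omd) belong to the small leucine-rich proteoglycans, secreted proteins that bind collagen fibrils, and Apod encodes apolipoprotein D, a secreted lipocalin that carries small lipids. In bulk tumours fewer cells of a type and less RNA per cell cannot be told apart.

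Promoter sequence is shown for the 3 genes that were lowest in both groups given enzalutamide (Ogn, Omd and Apod) and for the gene that was highest in ADF+ENZ (Lrrc15). Of the 10 genes 6 had an entry in the RefSeq promoter table of build GRCm38.p6 (Apod, Lrrc15, Ogn, Omd, Pdgfra and Postn). Each sequence holds the 250 bases before the annotated start, 5′ to 3′ on the strand of the gene, and capitals mark matches to the motifs searched.
Ogn (chr13:49607765-49608014, plus strand): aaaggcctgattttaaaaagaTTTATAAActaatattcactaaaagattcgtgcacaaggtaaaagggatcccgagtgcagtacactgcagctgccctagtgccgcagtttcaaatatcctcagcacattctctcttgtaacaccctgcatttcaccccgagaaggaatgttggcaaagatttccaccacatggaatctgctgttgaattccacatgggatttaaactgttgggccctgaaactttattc
Omd (chr13:49582212-49582461, plus strand): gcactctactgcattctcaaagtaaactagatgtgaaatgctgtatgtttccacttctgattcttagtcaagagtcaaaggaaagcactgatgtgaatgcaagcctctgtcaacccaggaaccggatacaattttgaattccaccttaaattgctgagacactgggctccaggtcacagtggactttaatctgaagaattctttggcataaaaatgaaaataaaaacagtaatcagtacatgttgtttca
Apod (chr16:31314809-31315058, minus strand): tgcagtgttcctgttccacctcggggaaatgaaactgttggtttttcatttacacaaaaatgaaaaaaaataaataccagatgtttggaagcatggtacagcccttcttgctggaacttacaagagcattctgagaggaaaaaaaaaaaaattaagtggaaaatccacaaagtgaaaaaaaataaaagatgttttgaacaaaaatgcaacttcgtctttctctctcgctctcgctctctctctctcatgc
Lrrc15 (chr16:30283255-30283504, minus strand): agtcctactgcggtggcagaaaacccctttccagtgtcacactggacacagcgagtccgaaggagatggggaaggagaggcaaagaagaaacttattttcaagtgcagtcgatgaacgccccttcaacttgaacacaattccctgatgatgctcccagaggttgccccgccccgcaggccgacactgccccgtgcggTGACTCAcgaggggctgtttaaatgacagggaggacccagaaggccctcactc
The motifs were TATAAA (the TATA box), the CCAAT box, the hexamer AGAACA of steroid receptor elements and the AP-1 motif TGANTCA, each on both strands. Lrrc15 held TGANTCA at 53 to 47 bases before the start, a motif present in 6.75% of the 32851 promoter windows of that length. Ogn held TATAAA on each strand in overlapping positions, at 229 to 224 and at 227 to 222 bases before the start, and 1 of the 2 Postn windows held it at 26 to 21 bases. TATAAA was present in 12.4% of all windows. Neither AGAACA (16.1% of windows) nor CCAAT (33.8%) was found in the windows of the 6 genes. For Ogn, Pdgfra and 1 of the Postn windows, a short stretch just after the start used was not found in any GENCODE transcript of the gene. Start positions themselves were not compared.

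The 16 libraries held between 10072489 and 25505655 gene counts. Reads in no annotated feature were 24.0% ± 2.05 of all reads in ADF+ENZ, 25.9% ± 1.45 in ENZ, 32.9% ± 2.73 in ADF and 25.9% ± 2.25 in Vehicle (SD, n = 4), so every comparison with ADF also compares libraries of another make-up. ADF+ENZ replicate 3 stood apart: it had the fewest gene counts, the most reads not aligned (16.7%, against 7.47% to 12.2% in the other 15 libraries) and the lowest normalisation factor. Calls in the ADF+ENZ group that were lost without this library are named beside the results. The calls of Adamts14 and C3 in this group were not followed through that fit.

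Levels per length differed widely among the 10 genes. Averaged over the 16 tumours, Dcn stood at 621 RPKM (library-scaled counts per kilobase of exon), followed by Ogn at 68.5, Pdgfrb at 63.2, Pdgfra at 53.5, Postn at 6.05 (RPKM in each case) and Lrrc15 at 5.06. Lum, at 4.46 RPKM, and Apod, at 4.42 RPKM, were lower, Omd averaged 2.45 RPKM and Fap 0.498 RPKM. Dcn ranked 16th of the genes tested by mean CPM (counts scaled to library size with TMM). The type I and type III collagen genes Col1a1 and Col3a1 averaged 1554 and 3472 CPM, and the mesenchymal filament gene Vim 2816 CPM. The fibroblast surface gene Thy1 was only 12.2 CPM. Of the 21 general fibroblast markers 20 were detected and Tcf21 was at 0 counts. Among markers of the labelled prostate cancer cells, Krt8 averaged 501 CPM and Krt18 120.9 CPM. Epcam averaged 0.420 CPM and the E-cadherin gene Cdh1 2.39 CPM, so that these epithelial markers were low beside abundant keratin and mesenchymal transcripts. Which cells made Dcn or the collagens was not measured.

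Osteoglycin, a proteoglycan that takes part in collagen fibril assembly, was lower in both groups given enzalutamide. Ogn had 52.0, 90.9, 28.7 and 102 CPM in the 4 ADF+ENZ tumours, 95, 91.2, 119.9 and 121 CPM in ENZ, 223, 129, 263 and 386 CPM in ADF, and 303, 153, 328 and 324 CPM in Vehicle. Every tumour of ADF+ENZ and of ENZ lay below every Vehicle tumour, while ADF overlapped Vehicle. The log2 fold change was -2.0 (SE 0.407) in ADF+ENZ against Vehicle, -1.37 (SE 0.398) in ENZ against Vehicle and -0.15 (SE 0.390) in ADF against Vehicle. Against ADF, ADF+ENZ stood at -1.86 (SE 0.406). ADF+ENZ overlapped ENZ, at -0.63 (SE 0.398).

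Osteomodulin, a keratan sulfate proteoglycan known best from bone, had the same order of groups at a far lower level. Omd had 1.31, 1.92, 0.329 and 1.98 CPM in ADF+ENZ, 3.58, 1.98, 1.80 and 3.61 CPM in ENZ, 6.56, 7.05, 7.64 and 10.2 CPM in ADF, and 14.0, 5.26, 5.24 and 15.7 CPM in Vehicle. The ADF+ENZ and ENZ tumours lay below all Vehicle tumours, and the Vehicle tumours fell into a higher and a lower pair. The sums behind these levels were 97 counts in ADF+ENZ, 186 in ENZ, 440 in ADF and 692 in Vehicle. The log2 fold change against Vehicle was -2.75 (SE 0.443) in ADF+ENZ, -1.87 (SE 0.411) in ENZ and -0.36 (SE 0.383) in ADF.

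Apolipoprotein D separated the tumours by drug. Apod had 3.19, 2.79, 2.74 and 4.32 CPM in ADF+ENZ, 7.96, 3.82, 3.37 and 1.99 CPM in ENZ, 16.1, 24.2, 13.6 and 20.7 CPM in ADF, and 26.7, 9.03, 12 and 29.6 CPM in Vehicle. All 8 tumours given enzalutamide were below all 8 that were not. The log2 fold change was -2.53 (SE 0.444) in ADF+ENZ against Vehicle, -2.24 (SE 0.434) in ENZ against Vehicle, -0.05 (SE 0.392) in ADF against Vehicle and -2.48 (SE 0.446) in ADF+ENZ against ADF. ADF+ENZ against ENZ was -0.30 (SE 0.472), with overlapping tumours. Without ADF+ENZ replicate 3 the values in ADF+ENZ against Vehicle were -1.76 for Ogn, -2.50 for Omd and -2.47 for Apod, and against ADF they were -1.61, -2.15 and -2.42 in the same order of genes.

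**Figure D1:**
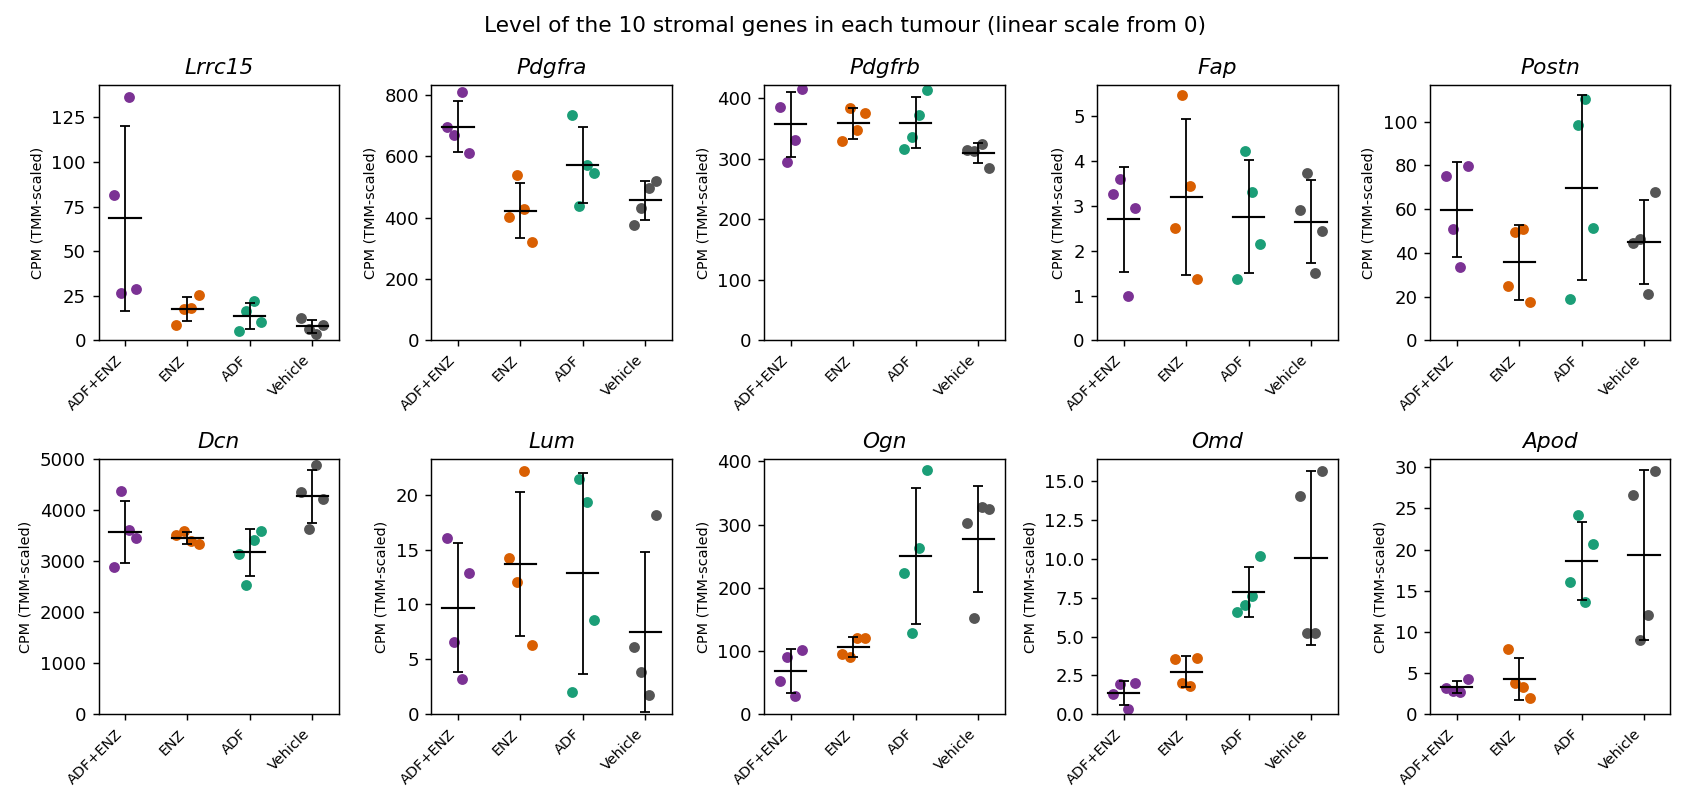
CPM of each of the 10 genes in each tumour, with ADF+ENZ, ENZ, ADF and Vehicle from left to right; points are tumours, horizontal lines are group means and bars are SD (n = 4), on linear axes from 0. Ogn, Omd and Apod are low in both groups given enzalutamide, and Lrrc15 reaches 137 CPM in 1 ADF+ENZ tumour.

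The gene of the TGF-beta-responsive membrane protein Lrrc15 was highest in ADF+ENZ. Lrrc15 had 81.4, 26.8, 137 and 28.9 CPM in ADF+ENZ, 8.95, 17.5, 18.4 and 25.5 CPM in ENZ, 5.12, 16.5, 22.2 and 10.5 CPM in ADF, and 12.7, 6.57, 3.86 and 8.45 CPM in Vehicle. All ADF+ENZ tumours lay above all tumours of the other 3 groups, by a wide margin in replicates 1 and 3 and a narrow one in replicates 2 and 4. The log2 fold change was 3.09 (SE 0.621) in ADF+ENZ against Vehicle, 2.31 (SE 0.598) against ADF and 1.92 (SE 0.582) against ENZ. ENZ against Vehicle, at 1.17 (SE 0.610), and ADF against Vehicle, at 0.78 (SE 0.620), overlapped. Without ADF+ENZ replicate 3, which was the highest, the value was 2.52 against Vehicle, 1.74 against ADF and 1.34 against ENZ.

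The gene of PDGF receptor alpha, the receptor found on most fibroblasts, was also highest in ADF+ENZ. Pdgfra had 695, 669, 808 and 610.1 CPM in ADF+ENZ, 401, 537, 429 and 320.2 CPM in ENZ, 735, 437, 571 and 545 CPM in ADF, and 377, 430.4, 496 and 520.3 CPM in Vehicle. The ADF+ENZ tumours were above all ENZ and all Vehicle tumours and overlapped ADF. The log2 fold change of ADF+ENZ was 0.61 (SE 0.161) against Vehicle, 0.72 (SE 0.161) against ENZ and 0.28 (SE 0.161) against ADF. Without ADF+ENZ replicate 3 it was 0.53 against Vehicle and 0.63 against ENZ, neither past the threshold. Antisense transcripts overlap 456 and 166 of the 10024 exonic bases of Pdgfra, and whether the counting used strand is not stated in the labels. The gene of PDGF receptor beta, the receptor of pericytes and many fibroblasts, was the least variable of the 10. Pdgfrb averaged 357 ± 54.0 CPM in ADF+ENZ, 359 ± 25.5 in ENZ, 359.5 ± 42.5 in ADF and 309 ± 17.1 in Vehicle (SD, n = 4), and its highest tumour was 1.46-fold above its lowest. Only ENZ stood clear of Vehicle in Pdgfrb, by a log2 difference of 0.21 (SE 0.105).

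Decorin, which binds collagen and TGF-beta, had 2897, 4374, 3604 and 3455 CPM in ADF+ENZ, 3514, 3596, 3392 and 3339.7 CPM in ENZ, 3151, 2538, 3419.6 and 3594 CPM in ADF, and 4352, 3630.2, 4895 and 4228 CPM in Vehicle. All ENZ and all ADF tumours were below all Vehicle tumours, and ADF+ENZ overlapped Vehicle. Dcn stood at a log2 fold change of -0.26 (SE 0.131) in ADF+ENZ, -0.31 (SE 0.131) in ENZ and -0.43 (SE 0.131) in ADF against Vehicle. The ADF value was past the threshold, but in only 5 of 16 fits with 1 tumour left out and 4 of 8 other fits. The range of its 16 leave-out values was -0.50 to -0.34.

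Periostin, lumican and Fap varied more within groups than between them. Postn had 75.1, 51.0, 33.6 and 79.7 CPM in ADF+ENZ, 24.7, 49.8, 51.0 and 17.6 CPM in ENZ, 19.0, 98.4, 110.2 and 51.5 CPM in ADF, and 44.3, 46.4, 21.2 and 68.1 CPM in Vehicle. Lum had 16.1, 6.57, 3.18 and 12.9 CPM in ADF+ENZ, 14.2, 12.1, 22.2 and 6.31 CPM in ENZ, 2.0, 21.4, 19.4 and 8.60 CPM in ADF, and 6.12, 3.89, 1.77 and 18.1 CPM in Vehicle. In both genes all 4 groups overlapped, and ADF replicate 1 was the lowest ADF tumour. Fap ran from 0.986 to 5.46 CPM over the 16 tumours, with group means of 2.70 ± 1.17 CPM in ADF+ENZ, 3.19 ± 1.73 in ENZ, 2.76 ± 1.25 in ADF and 2.64 ± 0.924 in Vehicle (SD, n = 4). The log2 fold changes in ADF+ENZ against Vehicle were 0.42 (SE 0.534) for Postn, 0.39 (SE 0.771) for Lum and 0.06 (SE 0.432) for Fap.

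Counts past the threshold (edgeR's adjusted p under 0.05 over all 18946 genes) followed this order, and nothing is read from them because the genes were selected with these contrasts known. In ENZ against Vehicle 2 of 10 were past it, Omd and Apod, where 5.43% of all genes were. In ADF against Vehicle it was 1 of 10, Dcn, with 9.01% of all genes. ADF+ENZ against Vehicle had 5 of 10 (Lrrc15 and Pdgfra higher, Ogn, Omd and Apod lower), with 12.5% of all genes. ADF+ENZ against ENZ had 1 of 10, Pdgfra, with 1.09% of all genes, and ADF+ENZ against ADF had 4 of 10 (Lrrc15, Ogn, Omd and Apod), with 16.3%. For the interaction, the fasting effect with the drug minus that without it, 0 of 10 were past the threshold in edgeR, DESeq2 or limma-voom and 1 at an unadjusted p under 0.05 in edgeR, with 3.10% of all genes past it. Its largest values were -1.24 (SE 1.08) for Lum and 1.14 (SE 0.842) for Lrrc15. The CPM ranges did not overlap for 5 of 10 genes in ENZ against Vehicle (12% of all genes), 1 in ADF against Vehicle (16.5%), 5 in ADF+ENZ against Vehicle (17.3%), 2 in ADF+ENZ against ENZ (8.67%) and 4 in ADF+ENZ against ADF (20.5%). The comparisons with Vehicle share its 4 libraries, and those with ADF+ENZ share its 4.

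**Figure D2:**
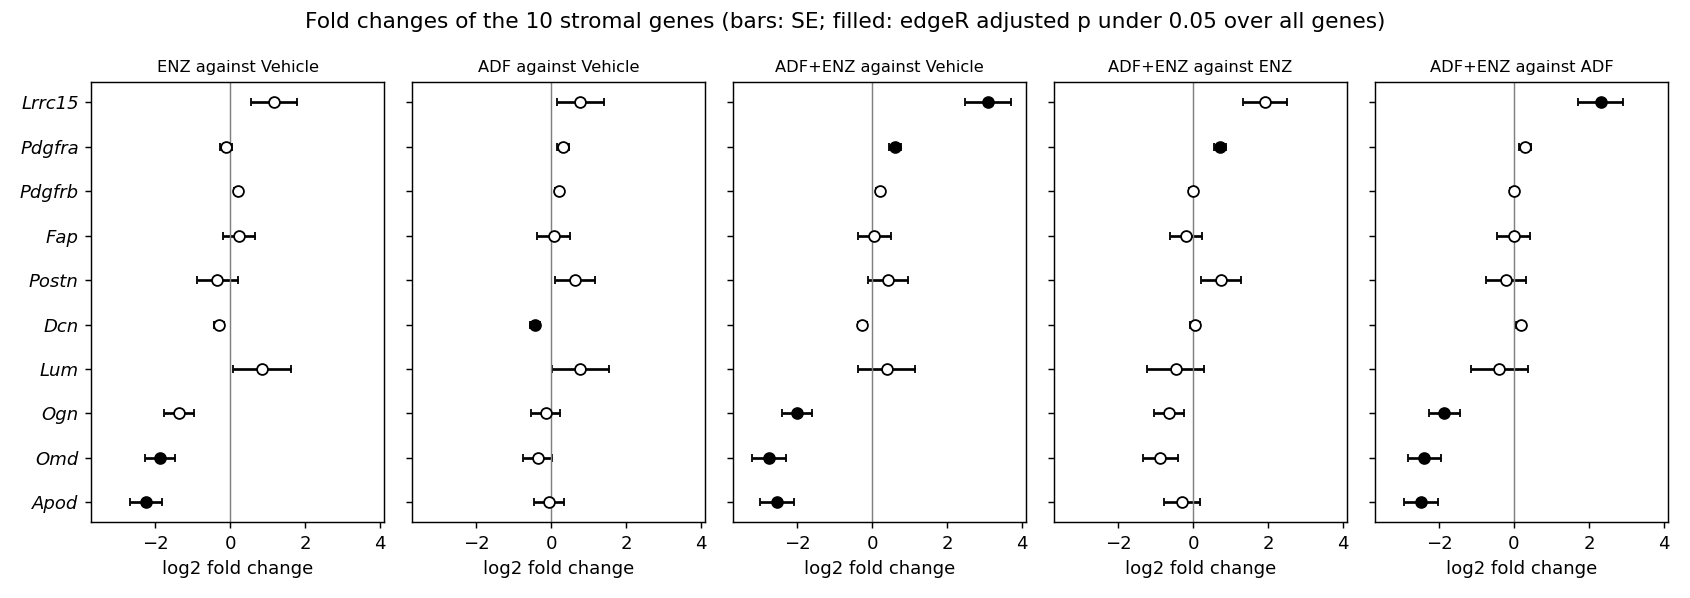
log2 fold change of each of the 10 genes in the 5 pairwise comparisons, each headed with the first group against the second; points are edgeR estimates, bars are SE, and filled points are past an adjusted p of 0.05 over all genes. The filled points in ADF+ENZ against Vehicle are Lrrc15 (3.09), Pdgfra (0.61), Ogn (-2.0), Omd (-2.75) and Apod (-2.53).

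When the share of reads outside annotated features entered the fit as a covariate, the differences between ADF+ENZ and ADF were smaller. Lrrc15 stood at 1.30, Ogn at -0.45, Omd at -0.40 and Apod at -0.90, and none of the 4 was past the threshold. The same fit put ADF lower against Vehicle, at -1.29 (SE 0.556) for Ogn, -1.86 (SE 0.431) for Omd and -1.18 (SE 0.524) for Apod, also not past it. The covariate and the ADF group cannot be told apart in these libraries. Against Vehicle, the 4 calls for Lrrc15, Ogn, Omd and Apod in ADF+ENZ were kept in all 16 leave-out fits and all 8 other fits. For ENZ against Vehicle, Apod was past the threshold in all 16 leave-out fits and in 7 of 8 others. Omd was past it in 14 of 16 and 6 of 8, missing it without ENZ replicate 2 (-1.75) or ENZ replicate 3 (-1.71). Ogn, not past it in the fit described, was past it in 2 of 16 and 4 of 8. Lrrc15 in ADF+ENZ against ADF missed it without ADF+ENZ replicate 1 (2.22), ADF+ENZ replicate 3 (1.74) or ADF replicate 4 (2.21). Pdgfra in ADF+ENZ against Vehicle missed it without ADF+ENZ replicate 3 (0.53) or Vehicle replicate 1 (0.52), and against ENZ it was past it in 9 of 16 and 5 of 8.

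Among the other small leucine-rich proteoglycans, Prelp, Tsku, Aspn and Chad passed the test in at least 1 pairwise comparison, each with the lower level in the group given enzalutamide. Of 14 listed 11 were tested. This and the other gene lists were chosen with earlier results of these data known, which their adjusted p-values do not take into account. Of all genes, 5.43% were called in ENZ against Vehicle and 9.01% in ADF against Vehicle. In ENZ against Vehicle 1 fell, Tsku, whose product tsukushi is a secreted signalling modulator; its level was 32.1 ± 3.80 CPM in ENZ and 46.9 ± 4.95 in Vehicle (log2 -0.55, SE 0.108, edgeR adjusted p = 0.00563). In ADF against Vehicle 0 of 11 passed in edgeR and 0 in DESeq2, 2 passed in limma-voom, and 2 had an unadjusted p under 0.05 in edgeR. In ADF+ENZ against Vehicle 3 of 11 fell, where 12.5% of all genes were called in either direction. Prelp, which anchors basement membranes to connective tissue, had 8.90, 17.6, 3.62 and 15.9 CPM in ADF+ENZ, against 67.0, 29.8, 52.5 and 60.8 CPM in Vehicle. The groups did not overlap for Prelp (log2 -2.14, SE 0.376, edgeR adjusted p = 0.00360). Tsku fell by 0.63 (SE 0.108, 0.00131 adjusted in edgeR), and asporin, Aspn, which binds TGF-beta, fell by 0.86 (SE 0.251, 0.0351). Without ADF+ENZ replicate 3, Prelp was -1.88 and Tsku -0.61 and both passed, while Aspn was -0.71 and did not. Set against ENZ, ADF+ENZ had 0 of 11 that passed in edgeR, DESeq2 or limma-voom, with 1 at an unadjusted p under 0.05 in edgeR. Set against ADF, 4 of 11 fell in ADF+ENZ, where 16.3% of all genes were called: Prelp by 1.42, Chad by 0.81, Aspn by 0.77 and Tsku by 0.34. Without ADF+ENZ replicate 3, Prelp (-1.17) still passed, and Chad (-0.68), Aspn (-0.62) and Tsku (-0.32) did not. The Aspn call was kept in 4 of 16 leave-out fits. With the covariate for reads in no feature Prelp was 0.08, Chad 0.14 and Aspn 0.20 in that comparison, none of them passing. Biglycan, Bgn, the closest relative of decorin, was 229 ± 122 CPM in ADF+ENZ and 194 ± 111 in Vehicle (log2 0.24, SE 0.547) and did not pass. The median over the 11 genes was -0.27 in ADF+ENZ against Vehicle and 0.07 in ENZ against Vehicle, where the medians over all genes tested were 0.00012 and 0.0137.

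Ogn and Omd are neighbours. Protein-coding genes follow each other on chromosome 13 in the order Ecm2, Aspn, Omd and Ogn, all on the plus strand within the span of Cenpp on the minus strand, which shares 0 exonic bases with Ogn, Omd and Ecm2 and 7 with Aspn. The log2 fold changes in ADF+ENZ against Vehicle along this order were -0.39 (SE 0.320) for Ecm2, -0.86 (SE 0.251) for Aspn, -2.75 for Omd and -2.0 for Ogn. Ecm2, an extracellular matrix gene, did not pass in any of the 6 contrasts. On chromosome 10 the order is Dcn, Lum, Kera and Epyc. Dcn and Lum, though adjacent, stood at -0.26 and 0.39 in the same comparison, and Kera was at most 0.237 CPM in any tumour. Epyc was 18.3 CPM in Vehicle replicate 4 and at most 0.355 CPM elsewhere.

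**Figure D3:**
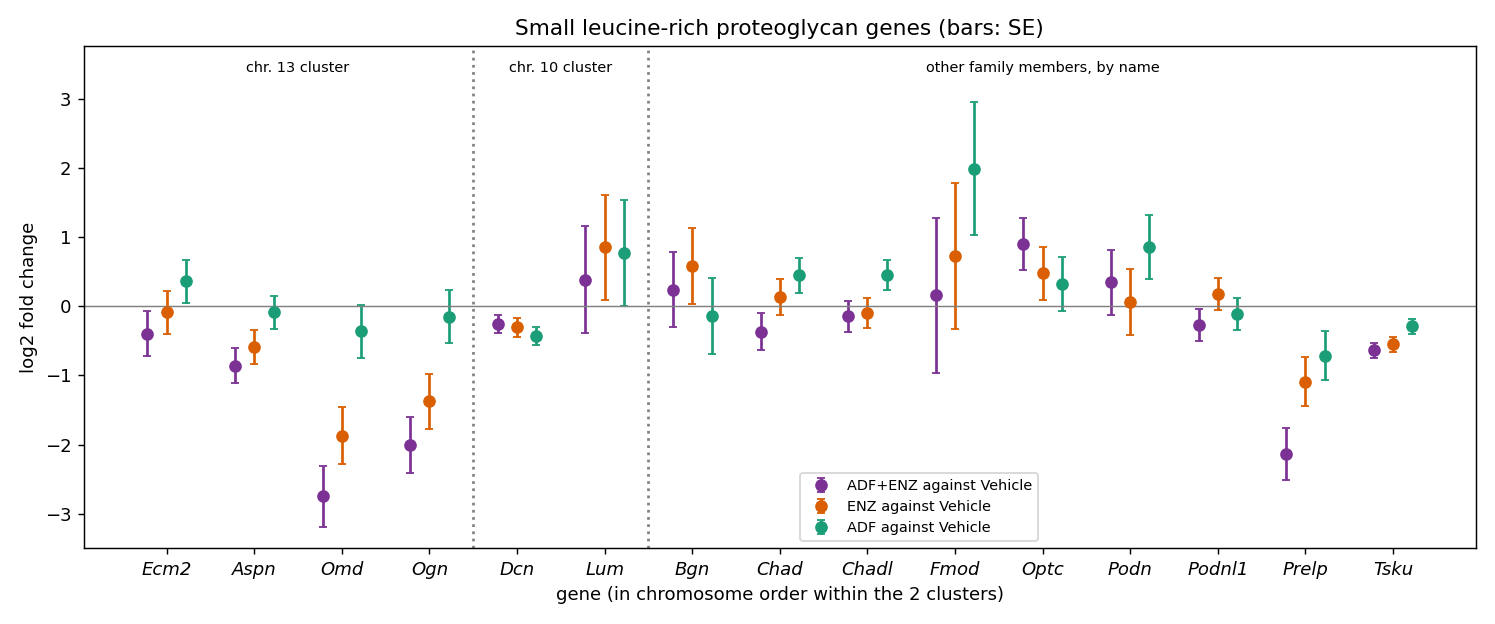
log2 fold change of all 15 small leucine-rich proteoglycan genes tested, in ADF+ENZ, ENZ and ADF against Vehicle; bars are SE. Omd (-2.75) and Ogn (-2.0) are lower than their chromosome 13 neighbour Ecm2 (-0.39) in ADF+ENZ, and Prelp, outside both clusters, stands at -2.14.

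Within groups, lumican and periostin varied together from tumour to tumour. After the mean of each group was subtracted from log2 CPM, Pearson's r between Postn and Lum over the 16 tumours was 0.92 (exact permutation within groups, p = 8.74e-05, adjusted over 45 pairs 0.00393) and Spearman's rho was 0.89 (exact p = 0.000175, adjusted 0.00787). Without the 2 tumours farthest from the median of Postn, r was 0.86. Fap and Postn gave an r of 0.82 (exact permutation p = 0.000639, adjusted 0.0144) and a rho of 0.69 (exact permutation p = 0.00986, adjusted 0.222), with an r of 0.77 without the 2 farthest tumours. Fap and Lum, at r = 0.67, did not pass (exact permutation p = 0.00807, adjusted 0.0937; rho 0.52, adjusted 0.546), and r was 0.44 without the 2 farthest tumours. Of the 45 pairs 2 passed by Pearson's r and 1 by Spearman's rho. Nothing is read from these calls or p-values, because the genes were selected by name with earlier results of these tumours known. The adjustment over 45 pairs does not take that selection into account, so the correlations are a description. Ogn and Omd, at r = 0.68, did not pass (exact permutation p = 0.00832, adjusted 0.0937; rho 0.61), and r was 0.41 without the 2 farthest tumours. Lrrc15 was not correlated past the threshold with any of the other 9 genes, and its r with Postn was 0.36. These tumours share depth and tumour make-up, whose part in the correlations was not tested.

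**Figure D4:**
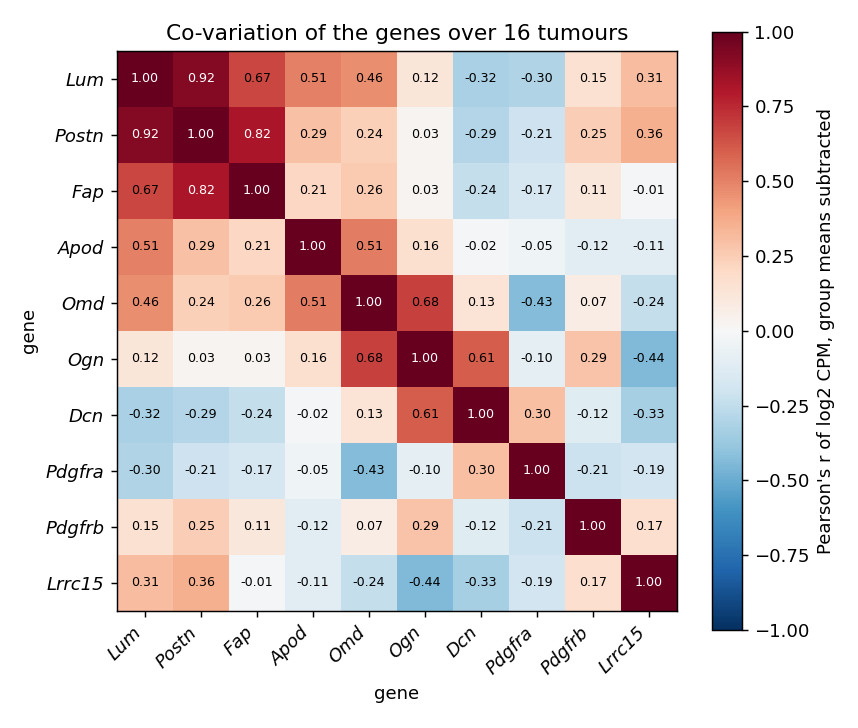
Pearson's r between log2 CPM of the 10 genes over 16 tumours after subtraction of group means; blue is negative and red positive. The 3 pairs of Lum, Postn and Fap stand at 0.67 to 0.92, and Ogn and Omd reach 0.68.

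**Figure D5:**
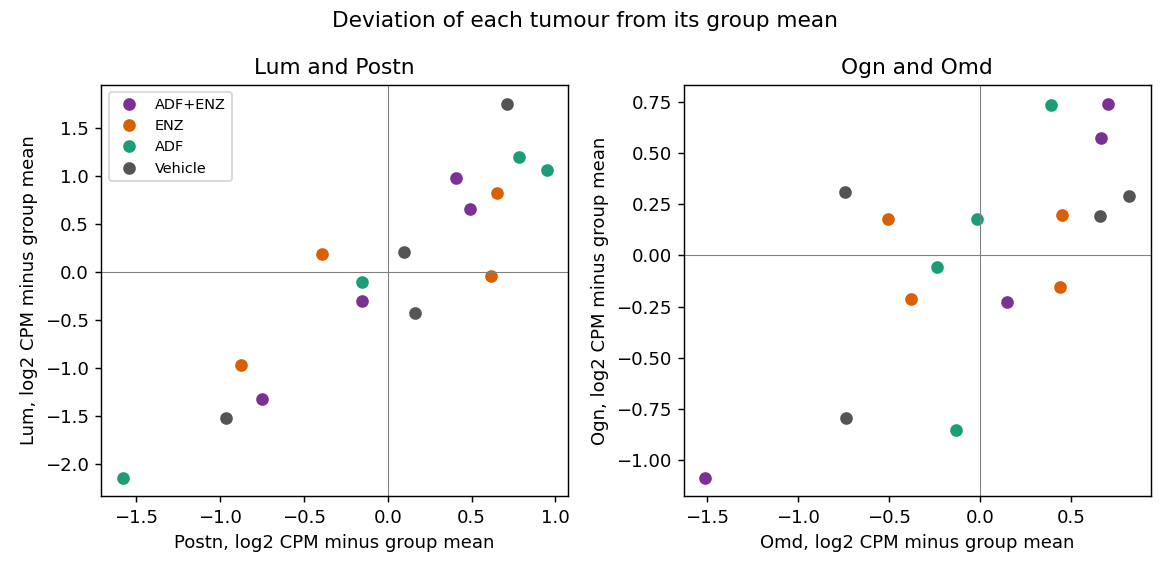
Deviation of each tumour from its group mean in log2 CPM, for Lum against Postn (left) and for Ogn against Omd (right); points are tumours, coloured by group. The Postn and Lum points rise together over the 4 groups taken as a whole (r = 0.92), though ENZ replicates 1 and 2 stand in opposite order. For Ogn and Omd 1 ADF+ENZ tumour lies far to the lower left.

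Among genes outside the 10, those with the highest mean r with them over the 16 tumours, group means subtracted, were Gm42633 (0.42), Anxa11os (0.38), Gm16523 (0.38), Spats2l (0.38), Mfap2 (0.37), 5730507A11Rik (0.36), AU041133 (0.36), AC124169.1 (0.36), Gm37581 (0.36) and Abi3bp (0.36). Mfap2 encodes a microfibril protein and Abi3bp an extracellular matrix protein. Without subtraction of group means, 2 of these 10 stayed among the first 10, Mfap2 and Gm37581. With it, r with the single genes ran from -0.27 to 0.80 for Gm42633 and from -0.34 to 0.89 for Abi3bp. All the genes named here but AC124169.1 had a negative r with at least 1 of the 10 fibroblast and proteoglycan genes.

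Of 16 ligand and signalling genes of the PDGF pathway, 4 fell and none rose in ADF+ENZ against Vehicle, and the median log2 fold change of the 16 was 0.08. Of all genes 12.5% were called in that comparison. Pdgfb, which encodes the B chain that binds both receptors, was 16.8 ± 5.01 CPM in ADF+ENZ and 31.8 ± 4.42 in Vehicle (log2 -0.90, SE 0.185, edgeR adjusted p = 0.00517). The immediate early genes Egr1 and Fos fell by 1.13 and 1.46, and Ptpn11, the gene of the phosphatase SHP2, by 0.26. Fos (-1.32) and Ptpn11 (-0.26) no longer passed without ADF+ENZ replicate 3. In ENZ against Vehicle 3 fell, Fos (-1.36), Pik3r1 (-0.48), a regulatory subunit of PI3-kinase, and Ptpn11 (-0.43). In ADF against Vehicle only Ptpn11 (-0.39) did. The shares of all genes called were 5.43% in ENZ against Vehicle and 9.01% in ADF against Vehicle. With a tumour left out, the Fos call in ENZ was kept in 10 of 16 fits and that of Pik3r1 in 12. Pdgfa, Pdgfc and Pdgfd passed in none of the pairwise comparisons.

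Of 27 collagen chain and collagen assembly genes, 2 rose and 3 fell in ADF+ENZ against Vehicle, none of them a chain, where 12.5% of all genes were called, and their median was 0.00391. The prolyl hydroxylase genes P4ha1 and P4ha2 fell by 1.07 (SE 0.168) and 1.03 (SE 0.121), and Pcolce, an enhancer of procollagen processing, by 0.63 (SE 0.110). Adamts3, a procollagen N-proteinase gene, rose by 1.15 (SE 0.232), and Adamts14, of the same enzyme family, by 0.52 (SE 0.165). The first 4 of these also passed, in the same direction, in ENZ against Vehicle and in ADF against Vehicle. The Adamts14 call was not followed through the fits with a tumour left out. Col1a1 and Col3a1 passed in none of the 5 pairwise comparisons, at 0.15 (SE 0.224) and 0.33 (SE 0.172) in ADF+ENZ against Vehicle. Fn1, the fibronectin gene, whose product binds periostin, was 5357 ± 540 CPM in ENZ and 11207 ± 2498 in Vehicle (log2 -1.06, SE 0.184, edgeR adjusted p = 0.00207), and in ADF+ENZ it was -0.17 (SE 0.182) and did not pass.

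Of the genes of TGF-beta signalling, 3 of 22 rose and none fell in ADF+ENZ against Vehicle, with a median of -0.08. The share called is near the 12.5% of all genes. Tgfbr2, the type II receptor, was 469 ± 82.6 CPM in ADF+ENZ and 310.4 ± 45.4 in Vehicle (log2 0.59, SE 0.130, edgeR adjusted p = 0.00636). Tgfbr3, the betaglycan co-receptor, rose by 0.64 (SE 0.131) and the corepressor gene Tgif1 by 0.64 (SE 0.108). Inhba, the activin A subunit gene and a contractile fibroblast marker, had 179, 263, 275 and 210.1 CPM in ADF+ENZ, against 90.9, 130.3, 80.0 and 127 CPM in Vehicle (log2 1.11, SE 0.197, edgeR adjusted p = 0.00274). Its groups did not overlap. Of 17 genes tested in the contractile list 2 rose, Inhba and the tropomyosin gene Tpm1 (0.39). The calponin gene Cnn2 fell (-0.37) but did not pass without ADF+ENZ replicate 3 (-0.33). Acta2, the smooth muscle actin gene of that list, did not pass. The median of the 17 was 0.0039, with 9 positive.

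Among genes of inflammatory and adventitial fibroblasts, Ly6a, Ly6c1 and C3 fell in each of the 3 treated groups against Vehicle. In ADF+ENZ against Vehicle 5 of 24 fell and 1 rose, where 12.5% of all genes were called, and the median was -0.44. Ly6a, the gene of the surface protein Sca-1, was 271 ± 21.9 CPM in ADF+ENZ and 473 ± 49.2 in Vehicle (log2 -0.80, SE 0.0971, edgeR adjusted p = 6.4e-05), and Ly6c1 fell by 0.75 and Il33 by 1.80. Il33 did not pass without ADF+ENZ replicate 3 (-1.56). Cd34, a surface marker of adventitial fibroblasts and of endothelium, rose by 1.13. In ENZ against Vehicle 3 fell and 0 rose, Ly6a (-1.28), Ly6c1 (-1.07) and the complement gene C3 (-1.60). The same 3 fell in ADF against Vehicle, by 0.77, 0.75 and 1.58. In each of these 2 comparisons the C3 call was kept in 11 of 16 leave-out fits, and those of Ly6a and Ly6c1 in all 16. The C3 call in ADF+ENZ was not followed through these fits. Of all genes 5.43% were called in ENZ against Vehicle and 9.01% in ADF against Vehicle. Of the 20 general fibroblast genes tested 2 rose and 2 fell in ADF+ENZ against Vehicle: S100a4 rose by 0.85 and Fstl1 by 0.54, the fibulin gene Fbln2 fell by 1.43 and gelsolin, Gsn, by 0.29. The Fstl1 call was kept in 5 of 16 leave-out fits and that of Gsn in 9 of 16, and without ADF+ENZ replicate 3 neither passed (0.53 and -0.30). Lcn2, the only other lipocalin to pass against Vehicle, fell in ADF+ENZ (-3.48), ENZ (-2.39) and ADF (-2.66); Apod in ADF was -0.05 (SE 0.392) against Vehicle, and -1.18 with the covariate given above.

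Summed levels of cell type lists stand beside these values. The summed general fibroblast markers averaged 12020 ± 1136 CPM in ADF+ENZ, 9282 ± 632 in ENZ, 11405 ± 1930 in ADF and 11162 ± 1171 in Vehicle (SD, n = 4). Col3a1, Vim and Col1a2 had the highest levels in that sum, and its ENZ tumours all lay below its Vehicle tumours. The summed inflammatory and adventitial fibroblast genes averaged 1329 ± 44.6 CPM in ADF+ENZ, 1082 ± 157 in ENZ, 1226 ± 86.4 in ADF and 1786 ± 118 in Vehicle (SD, n = 4). Every tumour of the 3 treated groups lay below every Vehicle tumour in that sum. Ly6a, Ly6c1 and Cd34 had the highest levels in it, so it does not stand for every gene of the list. Of the 24 genes tested, 12 had a positive log2 fold change in ADF against Vehicle (median 0.05). In ENZ 8 did (median -0.36) and in ADF+ENZ 7 (median -0.44). The sum of the 10 adipocyte markers was mostly Plin4, a lipid droplet protein gene, at 123 CPM in ADF+ENZ, 112 CPM in ENZ, 188 CPM in ADF and 220.1 CPM in Vehicle, while the defining markers Adipoq, Plin1 and Lep averaged at most 0.125 CPM over all tumours. The 10 summed to 112 to 183 CPM in ADF+ENZ, 113 to 161 in ENZ, 108 to 276 in ADF and 158 to 328 in Vehicle. Of these 10, 5 stayed below 1 CPM, and Lpl fell in ADF+ENZ (log2 -1.13, SE 0.315, edgeR adjusted p = 0.0280) but did not pass without ADF+ENZ replicate 3 (-1.0). The 12 skin epithelium markers summed to 5.81 to 9.29 CPM in ADF+ENZ, 7.93 to 11.6 in ENZ, 12.3 to 16.6 in ADF and 8.23 to 17.4 in Vehicle, with Krt1, Flg and Ivl at 0 counts. The 16 skeletal muscle markers summed to 20.6 to 53.9 CPM in ADF+ENZ and 20.4 to 41.8 in ENZ. In ADF they summed to 44.3 to 70.1 CPM and in Vehicle to 14.2 to 102.8, the highest being Vehicle replicate 4. The part of adipocytes, skin epithelium and muscle in the values of Ogn, Omd and Apod was not tested. None of the 60 exact two-sided permutation tests of list sums passed after adjustment (smallest adjusted p = 0.0857), and 4 tumours against 4 cannot give a p below 0.0286.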

How the data were processed

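RNA was sequenced from 16 tumours in 4 groups of 4. The deposited values were raw counts per gene in whole numbers, with no normalisation by the authors. Per the submitters' processing notes, the tools included HISAT2 and featureCounts, with Trim Galore and DESeq2 also listed; no versions are given, nor roles for the builds mm39 and GRCh38. The 5 rows of the deposited table that name no gene (reads in no feature, 24.0% to 32.9% on average per group, and unaligned, ambiguous, low-quality or multiply aligned reads) stayed out of library sizes and tests. Of 55414 gene IDs, 52081 had a symbol, and IDs without one held 3.51% of gene counts.

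Counts were analysed with edgeR 4.0.16 in R 4.3.3: TMM, filterByExpr with a minimum count of 10 and total of 15 (18946 genes kept), 1 robust quasi-likelihood fit to all tumours, and Benjamini-Hochberg adjustment over all genes with a threshold of 0.05. The SE of a log2 fold change was its size divided by the square root of F. Log2 CPM used a prior count of 2. RPKM used exon lengths of GENCODE M21 on GRCm38, and promoters came from RefSeq on GRCm38.p6, neither being the build mm39 of the notes. The procedure was tested on simulated data. Correlations were tested by exact permutation within groups, and sums of cell type lists over all 70 assignments of 4 against 4.

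The members and the 18 lists of 285 genes (2 symbols had no ID) were chosen with earlier results of these data known. Beside the 10 members, up to 4 genes per list and comparison were named, those past the threshold with the smallest p, with the 10 genes of highest mean r among those of at least 1 CPM. Adamts14, Kera, Epyc, Ecm2, Bgn, Thy1, P4ha1 in the interaction and the genes said not to have passed were named after their values were seen. Alternatives were DESeq2 1.42.0, limma-voom (limma 3.58.1), DESeq2 size factors, other filters, covariates, 2-group fits and each tumour left out. The 24 pairs of replicates differed by 5.53 to 36.7 times sampling noise (chi-square per degree of freedom), so none was taken as a duplicate library. Depth limits precision for genes of few counts. Whether mice were fasted or fed at collection is not stated in the labels. Figures were drawn with matplotlib 3.10.9. Some markers of the labelled cell type are not reported here.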

Additional observations from a re-analysis of the deposited data

Results flagged for a closer look

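In 8 of 116 groups of 4 tumours examined, 1 tumour stood far from the other 3 (a gap above 0.829 of the group's range), which chance gives in about 5% of groups. Ogn was 153.0 CPM in Vehicle replicate 2 and 303 to 328 CPM in the other Vehicle tumours. Epyc was 18.3 CPM in Vehicle replicate 4 and 0 in the others. Fmod, the fibromodulin gene, was 2.68 CPM in ENZ replicate 1 against 0.205 to 0.421 CPM in the other ENZ tumours, and 1.49 CPM in Vehicle replicate 4 against 0 to 0.178 CPM in the other Vehicle tumours. Summed general fibroblast markers reached 12899 CPM in Vehicle replicate 1, with 10334 to 10726 CPM in the others. Summed contractile genes were 2093 CPM in ADF replicate 4 and 2465 to 2516 CPM in the others. Summed inflammatory and adventitial genes were 848.6 CPM in ENZ replicate 1 and 1143 to 1179 CPM in the others. Summed bone and cartilage markers were 2393 CPM in ADF replicate 2 and 2749 to 2778 CPM in the others.

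By the interaction term (edgeR, adjusted over all genes), the fasting effect differed with and without enzalutamide for 11 named list genes and for P4ha1. The interaction was called for 3.10% of all genes. The difference in log2 fold change was 1.25 for Ly6a (SE 0.137, adjusted p = 0.000403), 1.07 for Ly6c1 (SE 0.158, adjusted p = 0.00471) and 0.68 for the macrophage gene Cd68 (SE 0.173, adjusted p = 0.0398). In the PDGF list it was 0.55 for Ptpn11 (SE 0.0993, adjusted p = 0.00891) and 0.80 for Pik3r1 (SE 0.184, adjusted p = 0.0288). Among collagen genes it was 1.04 for P4ha2, 1.35 for the lysyl hydroxylase gene Plod2, 1.26 for the lysyl oxidase gene Lox and -1.77 for P4ha3 (adjusted p = 0.00645, 0.0128, 0.0315 and 0.0315). P4ha1, of the same list, stood at 0.94 (SE 0.237, edgeR adjusted p = 0.0426). Fn1 stood at 1.36 (SE 0.259, adjusted p = 0.0126) and the inhibitory SMAD gene Smad6 at -1.32 (SE 0.259, adjusted p = 0.0141). With 1 tumour left out, the interaction call of Cd68 was kept in 4 of 16 fits and that of P4ha3 in 8. The call was kept in 9 for Lox and 9 for Pik3r1, and in all 16 for the other 7 of the 11 genes. The P4ha1 call was not followed through these fits. With the share of reads outside annotated features as a covariate, 0 of all genes passed for the interaction in edgeR and 1014 had an unadjusted p under 0.05.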

How the results depend on the processing

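Counts past the threshold are given for the 10 genes and for all genes. In ENZ against Vehicle (2 of 10, 1028 in all), DESeq2 called 1594 genes in all and limma-voom 1680, and the count of the 10 was 1 without the filter and 1 with only the 2 groups fitted. In ADF against Vehicle (1 of 10, 1707 in all), the count of the 10 was 0 under the stricter filter, the skeletal muscle covariate, the no-feature covariate and the 2-group fit, and that of all genes 452 with the muscle and 6 with the no-feature covariate. In ADF+ENZ against Vehicle (2369) the no-feature covariate left 1579. In ADF+ENZ against ENZ (1 of 10, 206 in all), DESeq2 called 2 of 10 and 693 in all; the no-feature covariate gave 0 and 43, the 2-group fit 0 and 54, and no filter 0 of 10. In ADF+ENZ against ADF (4 of 10, 3081 in all), the muscle covariate left 984 in all and the 2-group fit 2 of 10. The no-feature covariate left 0 of 10 and 0 in all there, where 589 had an unadjusted p under 0.05 in edgeR, and turned the log2 fold change of Prelp (0.085), Chad (0.14), Aspn (0.20), P4ha3 (0.25) and Lrrc4 (0.050) positive. For the interaction (587) it was 1363 with DESeq2, 128 with the muscle and 0 with the no-feature covariate.

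With 1 tumour left out, the 10 genes gave 1 to 3 calls in ENZ against Vehicle, 0 to 1 in ADF against Vehicle and 0 to 1 in ADF+ENZ against ENZ. All genes gave 403 to 1194 in ENZ against Vehicle (lowest without ENZ replicate 3), 610 to 1927 in ADF against Vehicle (ADF replicate 4), 1202 to 2489 in ADF+ENZ against Vehicle (ADF+ENZ replicate 3), 20 to 358 in ADF+ENZ against ENZ (ADF+ENZ replicate 3), 1197 to 3439 in ADF+ENZ against ADF (ADF replicate 4) and 148 to 908 for the interaction (ADF replicate 4). The cause was not tested. No paired analysis was possible because the labels give the groups no shared replicate numbers. Rescaling with other factors, chosen after seeing the data, left each of the 45 correlations on its side of the threshold. No list sum passed under any scaling, which says nothing about stability, since their adjusted p could hardly pass. Depth limits Omd, Fap and Apod most.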
